A study of Mus musculus with 8 samples.

Results

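Complement was followed through 9 genes: C3, C4b and Hc (the gene of C5), the terminal components C6, C8a, C8b, C8g and C9, and the regulator Cfi. They are 9 of the 48440 genes in the count table and were taken by gene symbol. The choice was made from the knockout and control difference itself, so every difference given for these 9 genes is a description and carries no test. RNA was sequenced from whole livers of 8 neonatal CD1 mice (an outbred stock) killed at 3 to 8 days of age. The 4 knockout pups (animals 275, 276, 277 and 278) carried a germline deletion of Myosin 5b, a motor protein of vesicle transport, and the exons removed are not stated. The 4 controls (279, 280, 281 and 282) were littermates, labelled together as heterozygous or wildtype, so some may carry 1 deleted allele. Each library is a separate animal, and the sources used here give no age, sex or litter for any single pup.

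Complement is a set of plasma proteins, most of them secreted by hepatocytes, that cut and activate each other in a chain. The classical and lectin pathways start it through C1 or mannose-binding lectin and cleave C4 and C2, the alternative pathway amplifies it through factor B, and all of them meet at C3. Cleavage of C5 then begins the terminal pathway, in which C6, C7, C8 and many copies of C9 assemble into a membrane pore, while factor I and its cofactors switch the chain off.

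Libraries held 14228268 to 18398039 counts. Myo5b itself averaged 49.3 ± 7.06 CPM (counts scaled by TMM to a common library total) in knockout livers and 133 ± 33.1 CPM in control livers (SD, n = 4 each), and all 4 knockout values lay below all 4 control values. Of 18274 genes tested, 20.7% were called at an adjusted p of 0.05 (quasi-likelihood test of edgeR), 1694 higher and 2088 lower in knockout livers. With library size as the only scaling, 2300 were higher and 1696 lower. The labelled tissue was matched by hepatocyte markers, whose summed level was 90965 to 105616 CPM in knockout livers and 113386 to 142905 CPM in control livers. Of the 15, 2 rose (Ahsg by 0.37 and Rbp4 by 0.32 on the log2 scale) and 2 fell further (the albumin gene Alb by 1.08 and Ttr by 0.97). Without Alb alone the sum was 63715 to 68757 CPM in knockout livers and 56220 to 68886 CPM in control livers, which overlap. Erythroid markers summed to 2368 to 4786 CPM in knockout livers and 9554 to 12472 CPM in control livers, and all 19 fell. Kupffer cell markers summed to 1999 to 2336 CPM in knockout livers and 1249 to 1414 CPM in control livers, and 11 of 14 rose. The markers named here were listed with earlier results of these data known. In whole tissue, fewer cells of a type and less RNA per cell cannot be told apart, and the part of these cell markers in the complement differences was not tested.

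The 9 genes differed in both directions. C9 was far lower in knockout livers and C8b and C8a were lower, whereas C6 was higher, although all 4 serve the same pore. Upstream, C4b was higher and C3 somewhat lower, the regulator gene Cfi was slightly lower, and Hc and C8g overlapped between the groups. Beside the 20.7% of all tested genes that were called, 2 of the 9 were called higher and 5 lower, and beside 23.6% of tested genes with no overlap between the groups, the same 2 and 5 did not overlap. Since the 9 were picked from this contrast, nothing is read from these counts. The median log2 fold change (knockout over control) of the 9 was -0.37, against 0.01 over all genes tested, and is likewise only a description.

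**Figure D1:**
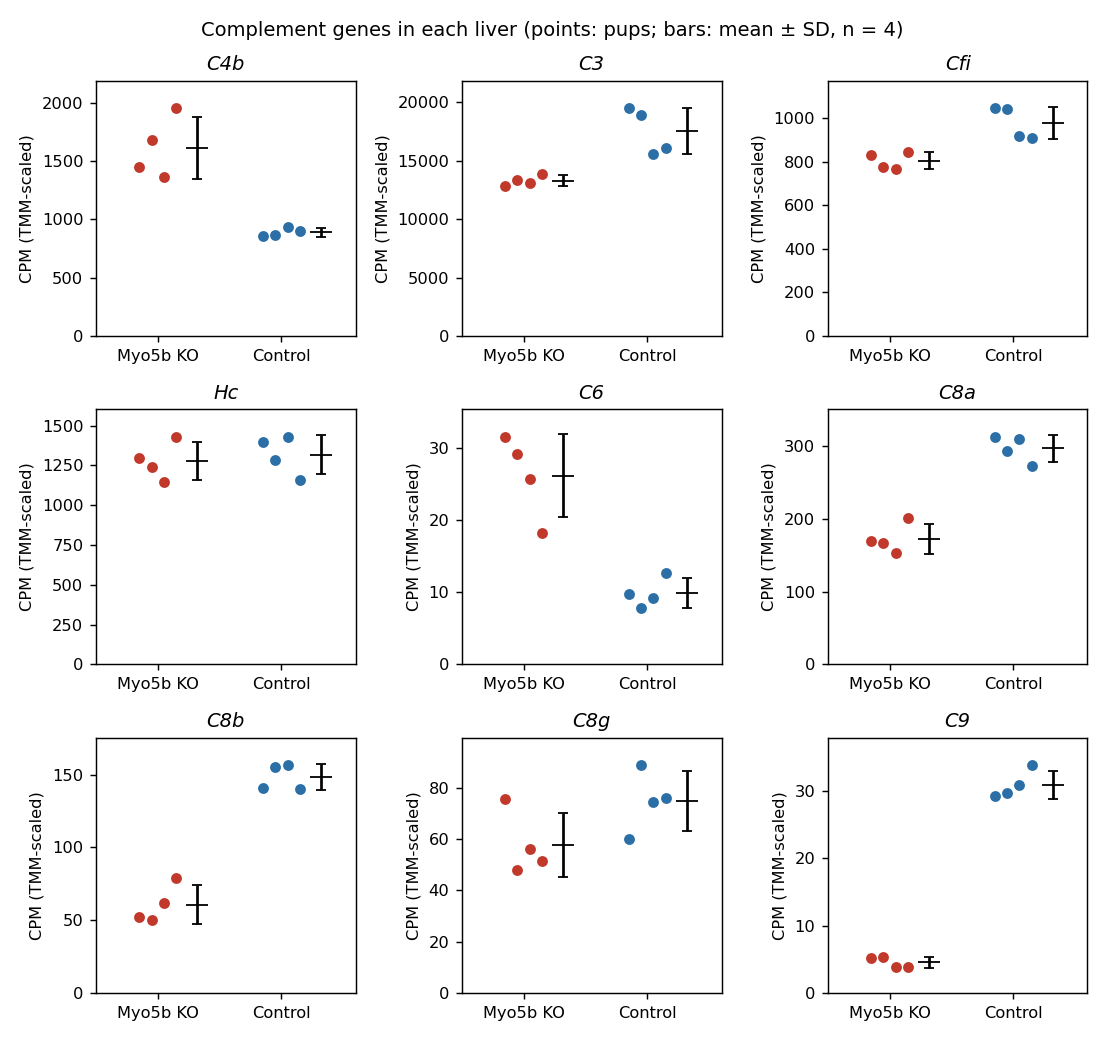
Level of each of the 9 complement genes in CPM (vertical axis, from 0) in 4 Myo5b knockout livers (left, red) and 4 control livers (right, blue), with the mean ± SD beside the points. C9 sits at 3.82 to 5.37 CPM in knockout livers and 29.3 to 33.9 CPM in control livers, while Hc overlaps between the groups.

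The terminal pathway held both the lowest and the highest log2 fold change of the 9 genes. C9 (chromosome 15, 6445327 to 6498751 on GRCm38, plus strand), whose protein polymerises to form the wall of the pore, had 5.22, 5.37, 3.85 and 3.82 CPM in knockout livers and 29.3, 29.8, 30.9 and 33.9 CPM in control livers. The groups were far apart and narrow inside, with the highest knockout well below the lowest control. The fold was 6.78 lower in knockout livers, a log2 fold change of -2.76 (SE 0.15), and only 39 of the 18274 genes tested had a lower one. C8b (chromosome 4, 104766317 to 104804548, plus strand), the beta chain that docks C8 on the growing complex, had 52.1, 50.2, 61.6 and 79.0 CPM in knockout livers and 141.0, 155, 156 and 140.0 CPM in control livers. It was 2.44-fold lower in knockout livers (log2 fold change -1.29, SE 0.12), with knockout 278 the highest of its group. C8a (chromosome 4, 104815679 to 104876398, minus strand), the alpha chain that inserts into the membrane, had 169, 167, 153 and 201 CPM in knockout livers and 313, 293, 310 and 273 CPM in control livers. It was 1.72-fold lower in knockout livers (log2 fold change -0.78, SE 0.09), again with knockout 278 highest. C8a and C8b are neighbours, 11.1 kb apart with no protein-coding gene between them, and lie tail to tail on opposite strands.

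C8g (chromosome 2, 25498651 to 25501719, minus strand), which encodes the gamma chain, a lipocalin bound to C8 alpha, had 75.5, 47.9, 56.1 and 51.3 CPM in knockout livers and 60.1, 88.8, 74.5 and 75.9 CPM in control livers. Knockout 275 lay among the controls and control 279 among the knockouts. Its log2 fold change was -0.37 (SE 0.15), which became -0.53 without knockout 275, -0.47 without control 279, -0.30 without knockout 276 and -0.28 without control 280. Hc (chromosome 2, 34983331 to 35061438, minus strand), whose product C5 starts the terminal pathway, had 1299, 1240.0, 1144 and 1430 CPM in knockout livers and 1396, 1287, 1428 and 1155 CPM in control livers. Those values interleave throughout, and the log2 fold change was -0.04 (SE 0.09).

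C6 (chromosome 15, 4727175 to 4814967, plus strand), which binds C5b as the first step of pore assembly, had 31.5, 29.1, 25.7 and 18.2 CPM in knockout livers and 9.81, 7.84, 9.14 and 12.7 CPM in control livers. All knockouts lay above all controls, with knockout 278 nearest to them. The fold was 2.65 higher in knockout livers (log2 fold change 1.41, SE 0.18), and 284 of the 18274 genes tested had a higher one. C9 lies 1630 kb from C6 on the same chromosome, with 8 protein-coding genes between them, and the pair differed in opposite directions. The ratio of C9 to C6, per transcript length, was 0.247 ± 0.036 in knockout livers and 4.46 ± 0.68 in control livers (SD, n = 4 each), so C6 exceeded C9 in all 4 knockout livers and C9 exceeded C6 in all 4 control livers. C7, the remaining pore gene, was barely detected, with 16, 17, 12 and 16 counts in knockout livers and 0, 0, 6 and 1 in control livers. It rose (log2 fold change 2.93, SE 0.81, adjusted p = 0.0162 in edgeR), a fitted size that rests on few counts and was 2.54 to 4.91 when any 1 liver was left out (4.91 without control 281), and the call was lost without control 279 (adjusted p = 0.0573) or control 282 (0.0510).

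The start regions of the 4 terminal genes that differed are shown because they can be read beside these opposite changes (RefSeq, GRCm38.p6, 5′ to 3′ in the direction of the gene, 250 bases before the start site and 50 after it). The windows are chr15:6445096-6445395 on the plus strand for C9, chr4:104766067-104766366 on the plus strand for C8b, chr4:104876349-104876648 on the minus strand for C8a and chr15:4726960-4727259 on the plus strand for C6. Capitals mark every match, on either strand, to 5 short motifs searched because such strings occur in sites of liver or core promoters, namely GTTAAT, TTGCNNAA (C/EBP), TTCNNNGAA (STAT), CAAAGTCCA (HNF4) and TATAAA for the core promoter box.
C9: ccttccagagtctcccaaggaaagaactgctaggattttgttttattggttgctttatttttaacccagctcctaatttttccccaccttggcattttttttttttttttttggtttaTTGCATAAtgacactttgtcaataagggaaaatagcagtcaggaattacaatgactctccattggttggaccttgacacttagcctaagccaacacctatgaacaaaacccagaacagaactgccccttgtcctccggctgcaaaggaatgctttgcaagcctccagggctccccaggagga
C8b: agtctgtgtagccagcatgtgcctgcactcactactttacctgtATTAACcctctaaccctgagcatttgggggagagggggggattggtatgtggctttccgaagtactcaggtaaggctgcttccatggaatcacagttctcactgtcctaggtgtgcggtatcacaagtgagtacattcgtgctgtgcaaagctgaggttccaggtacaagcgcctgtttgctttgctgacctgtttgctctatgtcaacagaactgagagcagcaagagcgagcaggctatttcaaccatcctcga
C8a: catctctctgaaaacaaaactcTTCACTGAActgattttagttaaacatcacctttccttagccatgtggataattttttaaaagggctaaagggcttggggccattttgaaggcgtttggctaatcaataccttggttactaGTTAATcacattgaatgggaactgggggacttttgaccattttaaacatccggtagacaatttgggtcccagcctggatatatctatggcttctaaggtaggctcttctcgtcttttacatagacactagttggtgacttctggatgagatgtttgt
C6: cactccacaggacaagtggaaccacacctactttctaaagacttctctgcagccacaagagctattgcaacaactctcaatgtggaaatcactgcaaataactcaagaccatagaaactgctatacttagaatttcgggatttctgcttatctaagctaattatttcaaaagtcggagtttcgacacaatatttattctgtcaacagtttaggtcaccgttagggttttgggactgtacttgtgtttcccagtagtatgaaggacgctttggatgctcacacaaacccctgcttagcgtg
The C9 window held a C/EBP match 132 bases before the start site, the C8b window a GTTAAT match at 206 bases, and the C8a window a GTTAAT match at 107 bases and a STAT match at 228 bases. The C6 window held none of the 5. The windows of genes not shown here were searched as well. Hc, which overlapped between the groups, had GTTAAT at -74 and TATAAA at -239 from the start site. C3, which was lower in knockout livers, had a C/EBP match at -45 and TATAAA at 15. The windows of C8g held no match. Of all 32851 windows of this length in the table, 7.10% held GTTAAT, 10.8% the C/EBP form, 8.30% the STAT form, 0.475% the HNF4 form and 13.6% the core promoter form. A match is a string of letters and does not show that a factor binds there. Sequences were found for 7 of the 9 genes, C4b and Cfi being the others.

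Upstream of the pore, C3 was lower and C4b higher in knockout livers. C3 (chromosome 17, 57203970 to 57228136, minus strand), on which all pathways converge, had 12862, 13354, 13095 and 13879 CPM in knockout livers and 19472, 18927, 15562 and 16112 CPM in control livers. Every knockout lay below every control, and the controls spread more widely than the knockouts. C3 was 1.32-fold lower in knockout livers (log2 fold change -0.40, SE 0.09). The gene took 1.29% to 1.41% of all counts in knockout livers and 1.54% to 1.88% in control livers. C4b (chromosome 17, 34728380 to 34743882, minus strand), the C4 that forms the classical and lectin convertase with C2, had 1453, 1679, 1366 and 1953 CPM in knockout livers and 855, 866, 937 and 899 CPM in control livers. All knockouts lay above all controls, knockout 278 highest. C4b was 1.81-fold higher in knockout livers (log2 fold change 0.86, SE 0.10).

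C4b has a close copy, C4a, which in mice encodes sex-limited protein, and 34.6% of the 50-base windows of C4b transcripts also occur in C4a. C4a rose by a like amount (log2 fold change 0.87, SE 0.10, adjusted p = 1.02e-05 in edgeR). Its share of the counts of the pair was 15.6% ± 0.25 in knockout livers and 15.5% ± 0.53 in control livers (SD, n = 4 each), which differ by less than the spread within groups. The split between them is uncertain, because the sources used here do not say how reads matching both genes were counted. Of the other main genes, C8g shared 1.19% and Hc 0.479% of their windows with another gene, and C3, C6, C8a, C8b, C9 and Cfi shared none.

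Cfi (chromosome 3, 129835884 to 129875332, plus strand), the protease that cuts C3b and C4b once a cofactor holds them, had 833, 777, 766 and 845 CPM in knockout livers and 1045, 1041, 918 and 908 CPM in control livers. The groups did not overlap, but the gap between them was narrow. Cfi was 1.22-fold lower in knockout livers (log2 fold change -0.28, SE 0.08). That value was -0.32 to -0.25 when any 1 liver was left out and -0.21 with library size alone.

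The terminal genes can be set against the upstream and regulatory genes by subtracting mean log2 CPM. The mean of Hc, C6, C8a, C8b, C8g and C9 less that of C3, C4b and Cfi was -5.10, -5.30, -5.25 and -5.42 in knockout livers and -4.68, -4.63, -4.47 and -4.47 in control livers. Every knockout lay below every control, and the groups differed by -0.71 on the log2 scale. The terminal mean was 6.06 ± 0.09 in knockout livers and 6.71 ± 0.04 in control livers, and the upstream and regulatory mean was 11.3 ± 0.11 in knockout livers and 11.3 ± 0.07 in control livers (SD, n = 4 each). C3 and Cfi offset C4b in the second mean. In the first, the rise of C6 (1.41) offset only part of the falls of C9 (-2.76), C8b (-1.29) and C8a (-0.78). C9 had the largest change of these genes and weighs most in that mean, and C7 is not in it. Each average thus hides opposite members.

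Levels of different genes were compared per length, as TPM from counts and annotated exon length. C3 led at 4041 ± 296 TPM in knockout livers and 4941 ± 472 TPM in control livers (SD, n = 4 each), and ranked first among all the complement genes listed. In knockout livers Cfi (566 ± 26.9 TPM), C4b (443 ± 82.6), Hc (318 ± 31.4), C8a (74.1 ± 9.63), C8g (59.9 ± 9.43), C8b (37.3 ± 8.69), C6 (11.4 ± 2.35) and C9 (2.78 ± 0.50) followed. In control livers the order was Cfi (640.2 ± 52.7 TPM), Hc (307 ± 48.6), C4b (228 ± 25.9), C8a (119 ± 14.7), C8b (84.9 ± 10.7), C8g (72.9 ± 12.2), C9 (17.6 ± 1.55) and C6 (4.02 ± 0.73). Neighbours whose ranges overlapped were C8a and C8g in knockout livers, and Hc with C4b and C8b with C8g in control livers. C9 and C6 thus held the last 2 places in both groups, in opposite order. C3 exceeded C4b by 9.27 ± 1.19 times in knockout livers and 21.9 ± 3.32 times in control livers.

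**Figure D2:**
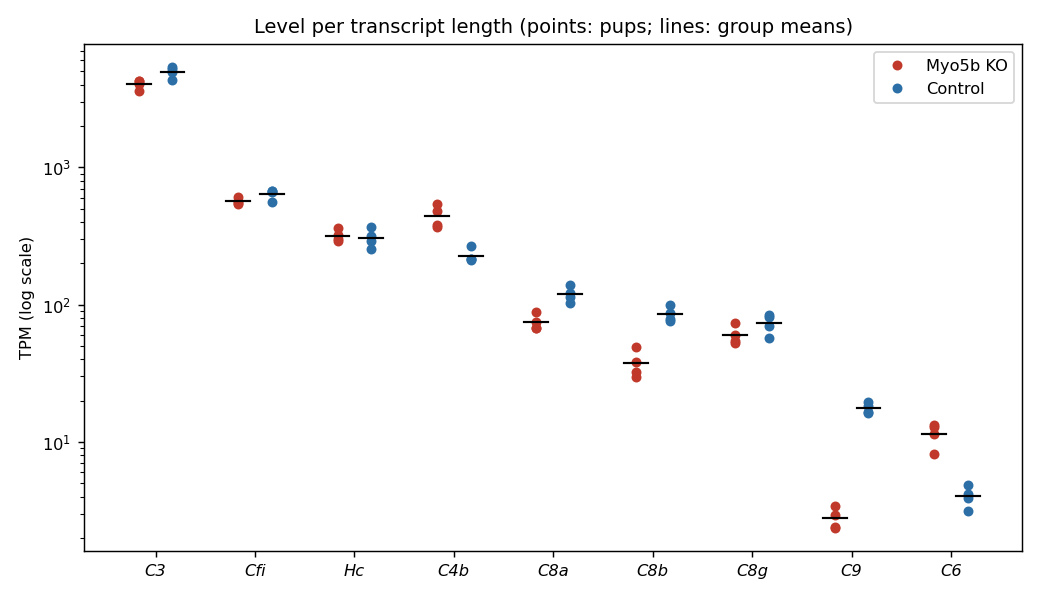
Level per transcript length in TPM (vertical log axis) of the 9 genes, ordered by their control mean, in 4 knockout livers (red, left of each pair) and 4 control livers (blue), with lines at group means. The levels run from C3 at 4041 TPM in knockout livers and 4941 TPM in control livers down to C9 and C6, which exchange places.

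The wider pathway was read from lists of 45 further complement genes, of which 44 were tested, the exception being Cfd with 3 counts in all. Of these 44, 14 rose and 11 fell in edgeR's test, adjusted over all genes, beside 20.7% called among all genes. Their median log2 fold change was 0.20. The number that rose was 10 to 13 and the number that fell 10 to 12 when any 1 liver was left out.

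Of the 9 classical pathway genes besides C4b, 5 rose and 1 fell (66.7% called, beside 20.7% of all genes). C1qa, C1qb and C1qc, whose products make the recognition molecule C1q and come from macrophages, all rose, by 0.83 (SE 0.09), 0.87 (SE 0.09) and 0.71 (SE 0.10) on the log2 scale, with adjusted p of 7.89e-06, 3.49e-06 and 1.08e-04. C1qb had 81.1, 74.4, 70.3 and 77.7 CPM in knockout livers and 41.8, 40.1, 44.4 and 39.7 CPM in control livers. Their sum was 233 to 265 CPM in knockout livers and 133 to 154 CPM in control livers. Per CPM of the 14 Kupffer cell markers it was 0.118 ± 0.007 in knockout livers and 0.107 ± 0.006 in control livers (SD, n = 4 each), and the groups overlapped. Cfp, the gene of properdin, which stabilises the alternative convertase and is made by leukocytes, and Vsig4, the C3b receptor of Kupffer cells, rose by 0.67 and 0.71. Fcna, which encodes the plasma ficolin of mice, rose by 0.97 (SE 0.10, adjusted p = 6.55e-06 in edgeR). Summed Kupffer markers were likewise higher in these livers, and their part in the rise of C1q, Cfp, Fcna and Vsig4 was not tested.

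Among the serine proteases and their partners, C1s1, the protease that cuts C4 and C2, fell (-0.38, SE 0.09), while C1ra was 217 ± 19.7 CPM in knockout livers and 188 ± 8.82 CPM in control livers (adjusted p = 0.0896). C1ra passed without knockout 277 (0.0390) and with library size alone (0.0253). Counts of both depend on how shared reads were assigned, since 35.1% of C1s1 windows of 50 bases and 50.8% of C1ra windows occur in another gene. C2 (0.52, SE 0.17) and Cfb, the factor B gene (0.32, SE 0.10), were called higher with adjusted p of 0.0370 and 0.0264 in edgeR. Values of C2 overlapped between the groups. Its call was lost without knockout 275, 277 or 278 or control 279, 280 or 281 (adjusted p of 0.0532 to 0.116), in limma-voom (0.0522) and in the fit adjusted for Y-linked genes (0.0703), and that of Cfb without knockout 275 or 276 or control 281 or 282 (0.0605 to 0.0904). The readthrough gene Gm20547 overlaps 46.9% of C2 exon bases and 79.5% of those of Cfb, so counts of the pair depend on how such reads were assigned.

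Of 8 lectin pathway genes, 3 fell and 1 rose (50% called, beside 20.7% of all genes). Mbl2 and Mbl1, the mannose-binding lectins, fell. Mbl2 had 145, 121, 109 and 143 CPM in knockout livers and 237, 305, 312 and 278 CPM in control livers (log2 fold change -1.13, SE 0.11, adjusted p = 2.74e-06 in edgeR). Mbl1 fell by 0.83 (SE 0.09), and Masp1, a protease carried by these lectins, by 0.69 (SE 0.15, adjusted p = 0.00728). Masp2, the protease that cleaves C4, was 58.1 ± 12.3 CPM in knockout livers and 67.8 ± 3.68 CPM in control livers (adjusted p = 0.224), and it passed the test without knockout 277 (0.0128). Exons of Tardbp overlap 54.9% of its exon bases.

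Of the 9 soluble regulators besides Cfi, 6 fell and 1 rose (77.8% called, beside 20.7% of all genes). Cfhr2 fell by 0.47 on the log2 scale (SE 0.09, adjusted p = 0.00195 in edgeR), though 29.2% of its windows occur in another gene. C4bp, the cofactor for C4b, fell by 0.66 (SE 0.16) with overlapping groups, Cpn2, a subunit of the enzyme that trims anaphylatoxins, by 0.50 (SE 0.08), and Vtn, encoding vitronectin, which blocks pore insertion, by 0.36 (SE 0.10). The call of Vtn was lost without knockout 275 (adjusted p = 0.0593) or 276 (0.0517) or control 280 (0.0561). Serping1, the C1 inhibitor gene, went against them, with 446, 447, 435 and 448 CPM in knockout livers and 237, 253, 269 and 221 CPM in control livers (log2 fold change 0.86, SE 0.08, adjusted p = 2.23e-06). Clu, a pore inhibitor, was 383 ± 28.4 CPM in knockout livers and 336 ± 33.3 CPM in control livers (adjusted p = 0.159), and it passed with library size alone (0.0349).

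Of 7 membrane regulators 2 rose and 1 fell (42.9% called, beside 20.7% of all genes). Cd55, which speeds the decay of convertases, rose by 0.58 (SE 0.12, adjusted p = 0.00252 in edgeR) and Cd59a, which stops C9 from polymerising, fell by 0.49 (SE 0.11, adjusted p = 0.00431). Cd55b, a close copy of Cd55, was called higher at 4.18 ± 0.62 CPM in knockout livers and 2.23 ± 0.72 CPM in control livers (adjusted p = 0.0423), a call lost in 6 of the 8 fits without 1 liver, all but those without knockout 278 or control 281, as well as in the fit adjusted for Y-linked genes (adjusted p = 0.0727) and with no low-count filter (0.0532). Among 8 receptor genes 2 rose, 25.0% and near the 20.7% of all genes, namely Vsig4 and C5ar2 (0.79, SE 0.25, adjusted p = 0.0300), the C5ar2 call being lost without knockout 275 or 277 or control 279, 281 or 282 (0.0549 to 0.0966). Levels of C3ar1 and C5ar1, receptors for C3a and C5a, were 5.43 ± 1.63 and 6.04 ± 0.96 CPM in knockout livers and 4.64 ± 0.46 and 4.02 ± 0.76 CPM in control livers, with adjusted p of 0.562 and 0.0837.

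**Figure D3:**
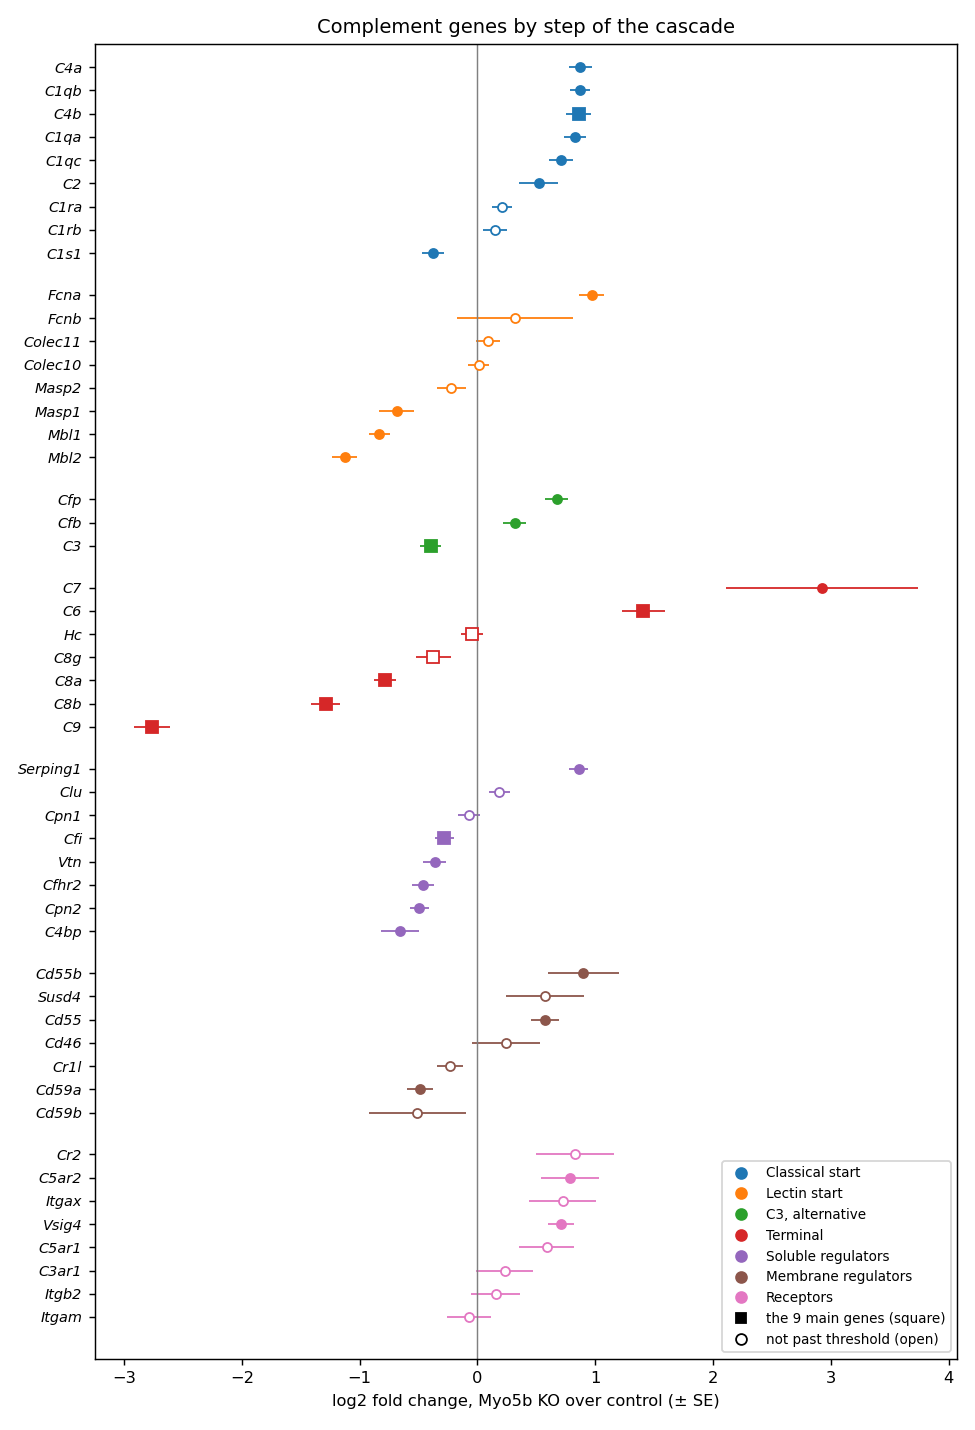
Log2 fold change (Myo5b knockout over control, horizontal axis, ± SE) of complement genes ordered by step of the cascade, with squares for the 9 main genes and open symbols for genes that did not pass an adjusted p of 0.05. The 9 were picked from this contrast, so a filled or open square is a description and carries no test. C1s2, discussed with the other observations, and genes not reported here are left out. Terminal genes spread from -2.76 for C9 to 1.41 for C6 and 2.93 for C7.

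**Figure D4:**
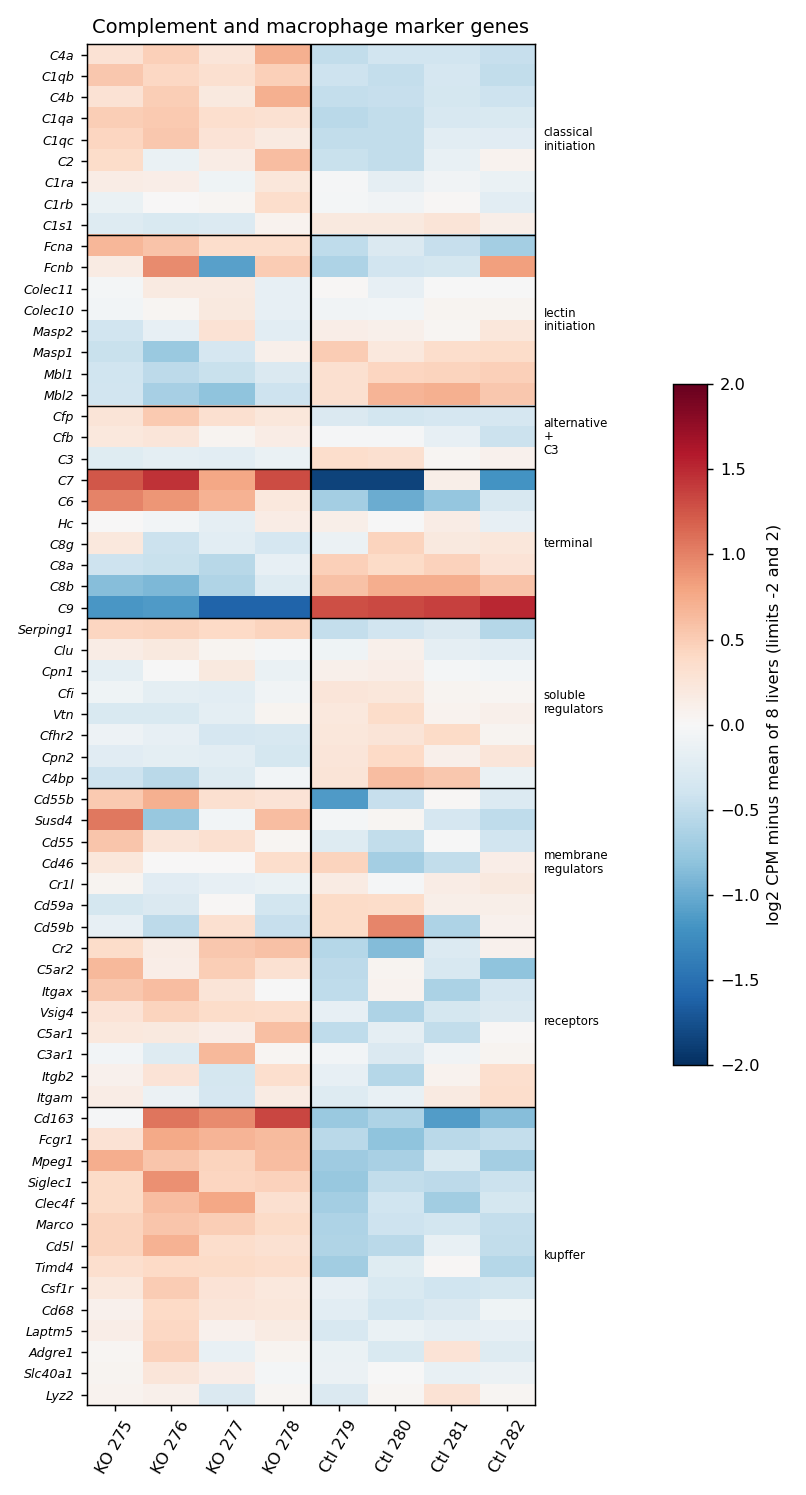
Log2 CPM of complement genes, and of 14 Kupffer cell markers at the bottom, less its mean over the 8 livers (colour scale from -2 to 2), with knockout livers on the left and control livers on the right. C9 is low in all 4 knockout livers and C6, C4b, Serping1 and the C1q genes are high in them.

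Liver complement genes are known to respond to cytokines through STAT3, NF-kB and C/EBP factors and to depend on HNF4. Of 22 tested genes for such factors, cytokines and receptors, 11 rose and 1 fell (54.5% called, beside 20.7% of all genes). No cytokine gene was among the 11. Il6, Il1b and Tnf were not called (adjusted p of 0.860, 0.969 and 0.695 in edgeR), and Ifng was not tested. Il6st, the signalling chain of the IL-6 receptor, was 339.9 ± 20.5 CPM in knockout livers and 222 ± 11.4 CPM in control livers (log2 fold change 0.61, SE 0.08, adjusted p = 3.86e-05 in edgeR). Ifngr1 (0.94, SE 0.10), Osmr, the oncostatin M receptor gene (1.06, SE 0.20), and Cebpd (0.79, SE 0.16) rose as well. The number that rose was 7 without knockout 276 or control 279. The gene that fell, Nr1h4, which encodes the bile acid receptor FXR, was called at an adjusted p of 0.0492 and lost that call without knockout 275, 276 or 277 or control 280, 281 or 282. Hnf4a, named after its values were seen, was 370.5 ± 31.1 CPM in knockout livers and 353 ± 10.4 CPM in control livers (adjusted p = 0.617 in edgeR). Of 16 tested acute phase genes, which are induced by the same cytokines, 4 rose (Cp 0.48, Hp 0.50, Lbp 0.42 and Hpx 0.44) and 1 fell, beside 20.7% called among all genes. The other 11 were not called, among them Fga, Fgb and Fgg. Saa and Orm genes were barely detected. The highest of them by mean, Orm1, was 1.46 CPM in knockout livers and 1.03 CPM in control livers.

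By profile over the 8 livers, the genes nearest to each of the 9 were sought among 11207 genes, by the root mean square difference of centred log2 CPM. C9 was nearest to Ces1f (0.272) and Aldh1a1 (0.341), C6 to Auts2 (0.170) and Csf2rb2 (0.176), C8b to mt-Nd5 (0.096) and mt-Co1 (0.110), and C8a to Psme3 (0.043) and Tk1 (0.061). C4b was nearest to C4a (0.040) and Mknk1 (0.096), C3 to Ptma (0.053) and F9 (0.060), Hc to Cdc73 (0.057), C8g to Top3a (0.091), and Cfi to Dnttip2 (0.037) and Csnk1a1 (0.043). C9 had the largest distance to its nearest gene of the 9, and only 39 of the 18274 genes tested had a lower log2 fold change. These distances include the difference between the groups, from which the 9 were picked. Shared regulation was not tested.

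Mean erythroid marker expression was 5.53 to 6.58 log2 CPM in knockout livers and 7.57 to 8.01 in control livers, so it splits the livers as genotype does. With it as a covariate, the log2 fold change was -2.97 (SE 0.52) for C9 and 1.57 (SE 0.23) for C4b. It was 0.75 (SE 0.56) for C6, -0.72 (SE 0.32) for C8b, -0.33 (SE 0.24) for C8a, -1.19 (SE 0.37) for C8g, -0.26 (SE 0.27) for C3, -0.20 (SE 0.25) for Cfi and 0.25 (SE 0.26) for Hc. Of the other 44, only C4a was called (1.49, SE 0.23). Errors were wider in that fit, in which 21 genes in all were higher and 16 lower.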

How the data were processed

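RNA was extracted from whole liver with Trizol and a column kit, per the labels' protocols. The authors deposited raw read counts per Ensembl gene, from reads aligned with Rsubread 2.20.0 in R 4.4.1 to GRCm38 (written GRMm38), per the labels' protocols, and featureCounts is named in the submitters' processing notes. Not given in the sources used here are the annotation, the strand setting and the treatment of multi-mapping reads. Symbols, positions and exon lengths came from GENCODE M21 (GRCm38), which matched 48058 of 48440 genes.

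Genes were kept by filterByExpr (minimum count 10, minimum total 15), scaled by TMM and tested for genotype over all 8 libraries with edgeR 4.0.16 (robust quasi-likelihood F-test, limma 3.58.1, R 4.3.3), with Benjamini-Hochberg adjustment over the 18274 genes tested. SE is the log2 fold change divided by the square root of F. Log2 CPM used a prior count of 2. Counting precision follows from totals of 14228268 to 18398039. Pairs of libraries within a group differed well beyond sampling noise (chi-square over its degrees of freedom, 11.9 to 21.8). The p-values set the difference between groups against the spread between these pups, which includes any effect of age, sex or litter within a group. The fit was also tested on simulated data in 3 runs. It recovered 31.5% of 1.5-fold, 52.15% of 2-fold and 87.1% of 4-fold changes, and 7.45% of its calls were false. A gene that was not called may thus still differ.

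The 9 genes and the gene lists were chosen with earlier results of these data known. Named genes are the 9, Myo5b, the listed complement genes that passed plus set others, the 4 smallest p in 2 further lists, and the 2 nearest profiles per gene (mean of at least 5 CPM). C1ra, C3ar1, C5ar1, Nr1h4, Hnf4a, the cytokine genes, Ahsg, Rbp4 and Ttr were named after their values were seen. Alternatives were median-ratio scaling, library size alone, other low-count filters, DESeq2 1.42.0, limma-voom, erythroid and Y-linked covariates, scaling without the 10 genes above 1% of counts, and each library left out. A few genes that these rules name are counted but not reported here. Sequence windows and motifs were chosen after values were seen. No pairing was used, since no replicate number is shared between groups.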

Additional observations from a re-analysis of the deposited data

Results flagged for a closer look

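Of 126 sets of 4 livers, 8 had a liver far from the other 3 by Dixon's gap test, and chance flags about 1 in 20. None involves the 9 main genes. C1s1 was 287 CPM in knockout 278, against 220.1 to 227 CPM in the other knockouts. Fcnb, a ficolin gene of neutrophils and their precursors, was 17.04 CPM in control 282, against 6.23 to 7.48 CPM in the other controls. Colec11 was 43.0 CPM in control 280, against 47.8 to 48.7 CPM in the other controls. C5ar1 was 7.46 CPM in knockout 278, against 5.37 to 5.69 CPM in the other knockouts. Il6st was 309 CPM in knockout 278, against 349 to 351 CPM in the other knockouts, and 205 CPM in control 282, against 227 to 229 CPM in the other controls. Hp was 2105 CPM in knockout 277, against 2667 to 2752 CPM in the other knockouts. Hpx was 2075 CPM in control 282, against 2795 to 2917 CPM in the other controls. The direction of the C1s1, Il6st, Hp and Hpx calls held without those livers.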

How the results depend on the processing

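Every one of the 9 main genes kept its direction under all alternatives except Hc, which is near 0. With the erythroid covariate, in which genotype and covariate cannot be told apart well, 1 of the 9 was past the threshold higher and 1 lower, a description since the 9 were picked from this contrast, and so were 1 and 0 of the other complement genes (10 and 5 at an unadjusted p under 0.05 in edgeR). In that fit 0 genes were higher and 0 lower among hepatic inputs (1 and 0 unadjusted) and among acute phase genes (3 and 0 unadjusted), and 21 and 16 among all genes. Among the other complement genes called in the main fit, it turned C1s1 (0.087), Masp1 (0.14), Cd55 (-0.048) and C5ar2 (-0.11) in direction. Some genes not called there turned as well, such as Clu (0.19 to -0.16). Leaving out 1 liver gave 4 to 6 lower genes among the 9, 7 to 10 higher and 0 to 1 lower hepatic inputs, and 0 to 1 lower acute phase genes. The lower hepatic inputs, Nr1h4 alone, were 0 with median-ratio scaling, library size alone or the Y-linked covariate (1 unadjusted each in edgeR). The summed TPM of the 9 genes in knockout livers was 5554 by exon union and 5124.6 by longest transcript. No paired analysis was possible because the groups share no replicate number. Modest changes, and genes of a few counts such as C7, are limited by depth and by 4 livers a group.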

Other observations

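C1s2, a copy of C1s1 with 26.9% of its 50-base windows shared with that gene, was present in 2 livers of each group and near 0 in the others. It had 0, 0, 78 and 129 counts in knockout livers 275, 276, 277 and 278, and 1, 101, 104 and 3 counts in control livers 279, 280, 281 and 282. Y-linked transcripts, which mark males, summed to 238 CPM in knockout 277 and to 237 and 233 CPM in controls 279 and 281, and to under 1 CPM in the other livers, so livers with and without C1s2 counts both include pups with and without them.

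Markers of other cells are read beside the 20.7% of all genes called. Of 10 endothelial markers 8 rose, and they summed to 1341 to 1601 CPM in knockout livers and 1060 to 1144 CPM in control livers. Of 12 stellate cell markers 4 rose and 2 fell, with sums of 1740 to 1853 CPM in knockout livers and 1970 to 2548 CPM in control livers. Of 11 neutrophil markers 2 fell (18.2%, below that share), with sums of 649 to 1019 CPM in knockout livers and 839.8 to 1084 CPM in control livers. The 7 cholangiocyte markers summed to 69.8 to 82.9 CPM in knockout livers and 71.0 to 83.3 CPM in control livers. No marker on any list was at 0 in every liver.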
